A study of Triticum aestivum with 4 samples.

Results

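Bread wheat carries the A, B and D subgenomes, and the chromosomes 2A, 2B and 2D are the homoeologous group 2, that is, the related chromosomes that each subgenome inherited from a different diploid ancestor. The regions described here are the TaCCA1 binding peaks whose chromosome name in the deposited peak list is 2A, 2B or 2D. There were 71837 of them among 467343 peaks in all (15.4%), with 25109 on 2A, 25711 on 2B and 21017 on 2D. The other 18 named chromosomes, which served for comparison, held 388293 peaks. No value of a peak was used to choose the regions.

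The peaks come from DNA affinity purification sequencing (DAP-seq), in which fragmented genomic DNA is offered to a purified transcription factor on beads and the retained fragments are sequenced. The bait was TaCCA1-7D fused to maltose-binding protein (MBP). The DNA was from leaves of 2-week-old seedlings of the cultivar Fielder, naked and without chromatin, so a peak records binding in vitro. The series holds 2 libraries labelled CCA1 and 2 labelled input, and both groups came from the same cultivar, tissue and age, with no treatment named in the labels. A single peak list was used, which does not separate the libraries. Values per library, the spread between replicates and the depth per library were not analysed here, and every test below sets chromosomes of the same list side by side.

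CCA1 is a MYB-like transcription factor of the plant circadian clock. In Arabidopsis it peaks around dawn and represses evening genes by binding the evening element, whose core is AATATC, or GATATT when read from the opposite strand. Group 2 of wheat is known for the Ppd-1 loci, which encode pseudo-response regulators of the clock family and set the response to day length.

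A gene of 2B, TraesCS2B02G491700, is annotated as a starch synthase. A stretch of its promoter was made as labelled oligonucleotides for gel shift and biolayer interferometry assays, which test binding to the TaCCA1 protein. The sequences are shown because they hold the one site of group 2 for which bases are at hand. They are written 5′ to 3′, and each has 35 bases. In DAP3-F and in its reverse complement DAP3-R the capitals mark the element core, which occurs 1 time in each.
DAP3-R, intact: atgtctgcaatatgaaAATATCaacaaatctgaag
DAP3-F, intact: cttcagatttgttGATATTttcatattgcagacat
In the mutated pair the capitals mark the 5 bases that were changed, and neither AATATC nor GATATT is left.
DAP3-M_R, changed: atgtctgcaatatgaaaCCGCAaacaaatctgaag
DAP3-M_F, changed: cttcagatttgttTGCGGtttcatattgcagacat
The gene was not placed among the peaks, because no annotation in the coordinates of the list was used, and for the same reason no peak below is assigned to a gene, an exon or an intergenic region.

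The 3 group 2 chromosomes carried nearly the same density of TaCCA1 peaks. Lengths were measured to the end of the final peak. 2A had 32.2 peaks per Mb over 780.737 Mb (95% exact Poisson interval 31.8 to 32.6), 2B had 32.1 over 801.242 Mb (31.7 to 32.5) and 2D had 32.2 over 651.843 Mb (31.8 to 32.7). These intervals cover counting error only, and so do all intervals below. The 3 intervals overlapped, and the densest homoeologue exceeded the sparsest by 0.153 peaks per Mb. In each of the other 6 homoeologous groups the same range was at least 0.985 peaks per Mb. The A homoeologue exceeded the D homoeologue by 0.945 to 2.05 peaks per Mb in those 6 groups, whereas 2A minus 2D was -0.0818. This difference between homoeologous groups was described and not tested.

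The density of 2A was the lowest of the 7 A chromosomes, the other 6 of which had 33.2 to 34.4 peaks per Mb. By contrast, 2B had rank 3 from the lowest of the 7 B chromosomes (others 31.3 to 33.5) and 2D rank 3 of the 7 D chromosomes (others 31.3 to 33.1). Peaks covered 1.65% of the length of 2A, below all other A chromosomes (1.70 to 1.77%), 1.68% of 2B and 1.67% of 2D.

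The peaks of the 3 homoeologues had nearly the same median fold enrichment, but their median widths differed as much as in any other homoeologous group. The median width was 475 bp on 2A, 489 bp on 2B and 485 bp on 2D, and the narrowest peak was 176 bp on each. The width of 2A was tied for the narrowest and that of 2D was the widest in its subgenome. The range of 14 bp equalled the largest of the other 6 groups (3 to 14 bp). The width of 2A minus that of 2D was -10 bp, beside -7 to 3 bp in those groups. These differences between groups were not tested. The fold enrichment is the number of tags at the summit over the local background, each with 1 tag added, and its median was 6.17 on 2A, 6.19 on 2B and 6.17 on 2D. A value of 6.17 is what 9 tags give at the lowest background of the list, 0.621 tags, so these medians lie on or next to a step of the scale. The median summit had 12 tags on each of the 3 chromosomes. Under 20 tags lay behind 92.3% of the peaks of 2A, 91.3% of 2B and 92.7% of 2D, which leaves the enrichment of a single peak with a wide counting error.

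Fold enrichment above 10 was reached by 2.94% of the peaks on 2A (737 peaks, 95% Wilson interval 2.73 to 3.15%), 2.86% on 2B (736 peaks, 2.67 to 3.07%) and 2.65% on 2D (558 peaks, 2.45 to 2.88%). The order ran from 2A down to 2D, but all 3 intervals overlapped. The share of 2A exceeded that of 2D by 0.280 points, whereas A minus D was -0.130 to 0.181 points in the other 6 groups. This difference was not tested. The share of 2A was the highest of the 7 A chromosomes (others 2.73 to 2.90%), while 2B and 2D were each second from the lowest in their subgenome.

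Against the other 18 chromosomes, none of 8 measures set group 2 apart after correction. The group label was permuted within each subgenome over all 343 assignments (exact two-sided permutation test, smallest possible p = 0.00292), with Benjamini-Hochberg adjustment over the 8 measures. The density of group 2 minus the mean of the other chromosomes of the same subgenome was -0.609 peaks per Mb (32.2 against 32.8 on average, lower in all 3 subgenomes, exact p = 0.143, adjusted p = 0.513). The difference was -1.49 for 2A, -0.332 for 2B and -0.00163 for 2D, and without 2A and its subgenome it was -0.167 (exact p = 0.735, adjusted p = 0.840). The median width differed by 0.389 bp (exact p = 0.915, adjusted p = 0.915). The median fold enrichment differed by -0.00901 (exact p = 0.262, adjusted p = 0.513), and the share above 10 by -0.0775 percentage points (exact p = 0.449, adjusted p = 0.550). With 7 chromosomes to a subgenome such tests see only large shifts, and they describe this list. The 8 measures were chosen with earlier results of these data known, which the adjustment does not cover.

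The spacing of peaks gave the smallest p of the 8. Neighbouring summits lay under 2 kb apart in 3.88% of the pairs on 2A (973 pairs, 95% Wilson interval 3.64 to 4.12%), 4.13% on 2B (1063 pairs, 3.90 to 4.38%) and 3.57% on 2D (750 pairs, 3.33 to 3.83%). Each was the lowest of the 7 chromosomes of its subgenome. Group 2 averaged 3.86% and the other chromosomes 4.04%, a difference of -0.180 percentage points (exact permutation test, p = 0.00875), which did not pass after correction (adjusted p = 0.0700). With peaks of fold enrichment above 10 alone, the direction turned and the difference was 0.0256 percentage points.

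**Figure D1:**
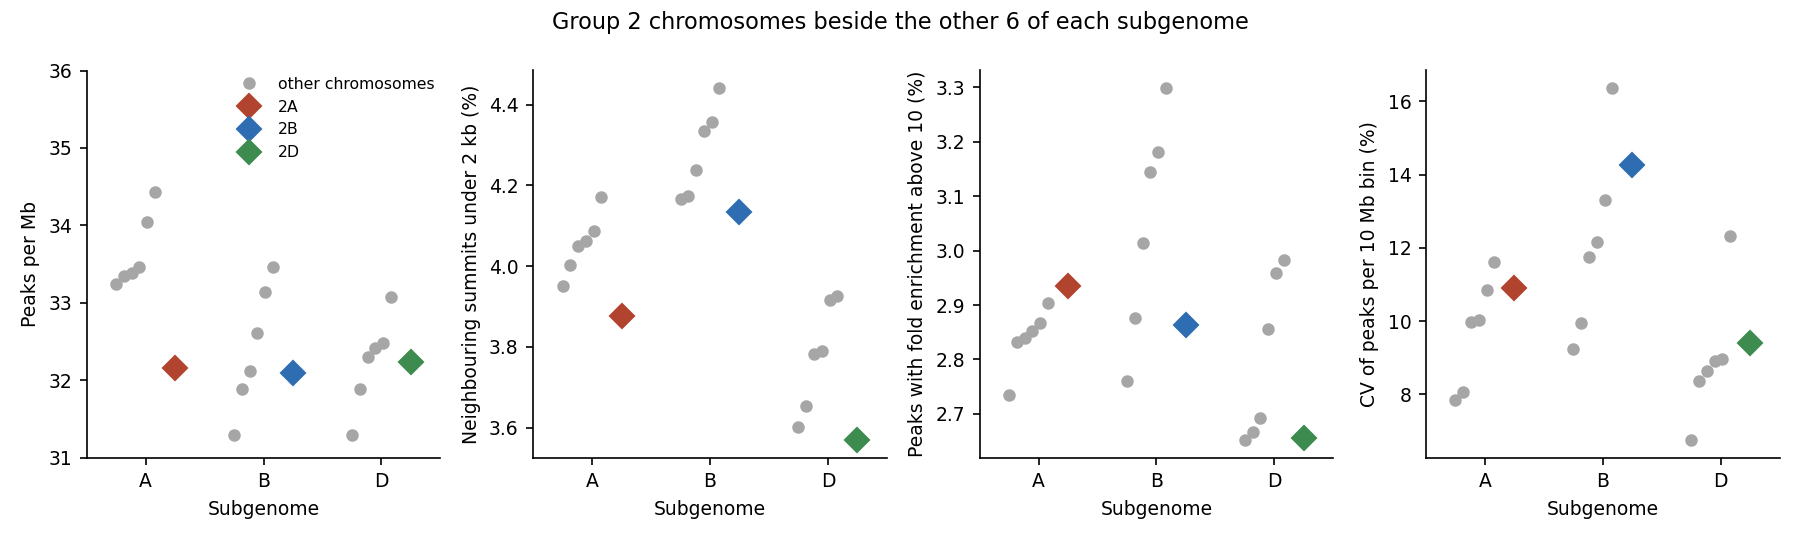
Each grey point is a chromosome of the A, B or D subgenome and each diamond is 2A, 2B or 2D, with the peaks per Mb, the share of neighbouring summits under 2 kb apart (%), the share of peaks with fold enrichment above 10 (%) and the coefficient of variation (CV) of peaks per 10 Mb bin (%) on the vertical axes, none of which starts at 0. The diamond of 2A lies below all other A chromosomes in density (32.2 against 33.2 to 34.4), and all 3 diamonds are the lowest of their subgenome for close neighbours.

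Most neighbours lay far apart. The median distance from summit to summit was 21288 bp on 2A, 20813 bp on 2B and 21522.5 bp on 2D, against a mean of 21005 bp over the other 18 chromosomes (difference 202 bp, exact permutation p = 0.321, adjusted p = 0.513). The distance of 2A was the longest of the A chromosomes (others 20287 to 20848 bp). Over the 71834 neighbouring pairs of group 2, 34.3% were 20 to 50 kb apart and 24.2% were 10 to 20 kb apart, beside 34.3% and 24.3% over the other 18. Runs of at least 3 summits with under 2 kb from each to the next numbered 10 on 2A, 7 on 2B and 4 on 2D, and none held more than 3 summits. These runs took 63 of 71837 peaks in group 2 (0.0877%) and 605 of 388293 on the other 18 (0.156%), a difference that was not tested.

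Long distances were more numerous on 2A than on the other A chromosomes. Distances above 500 kb numbered 11 on 2A, 17 on 2B and 3 on 2D. On the other A chromosomes there were 2 to 7, on the other B chromosomes 6 to 20 and on the other D chromosomes 1 to 4, so 2A held more than any other A chromosome and 2B and 2D lay within the range of theirs. They made up 0.0432% of all pairs in group 2 and 0.0270% on the other 18. The counts were not scaled to length, and 2A was the longest A chromosome (781 Mb, others 594 to 751 Mb). As a share of pairs, distances above 100 kb made up 3.53% on 2A, beside 2.76 to 3.21% on the other A chromosomes. On 2B (3.72%) and 2D (3.53%) this share lay within the range of the other chromosomes of the subgenome. The counts above 500 kb were chosen after the values were seen, and neither counts nor shares were tested.

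In 10 Mb bins, the 3 chromosomes were uneven, and most of all 2B. A full bin held 219 to 389 peaks on 2A (median 329.5, 78 bins), 123 to 392 on 2B (median 332.5, 80 bins) and 218 to 381 on 2D (median 327, 65 bins). The coefficient of variation over bins was 10.9% on 2A, 14.3% on 2B and 9.40% on 2D, each second from the highest in its subgenome. The mean excess over the other chromosomes was 1.24 percentage points (exact permutation p = 0.294, adjusted p = 0.513). The other A chromosomes averaged 9.73%, the other B 12.1% and the other D 8.99%. Without bins that hold a 1 Mb window of 8 peaks or fewer, 2A had 9.40%, 2B 10.8% and 2D 9.12%. The mean excess was then 1.37 points (exact permutation p = 0.0845, adjusted p = 0.338). This alternative was chosen after the data were seen.

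A bin was called high or low when its count lay outside the central 95% of a Poisson distribution with the mean of its own chromosome. Of the 223 full bins of group 2, 36 were high (16.1%), whereas 9.88% of the 1174 full bins of the other 18 chromosomes were high. Low bins numbered 31 (13.9%), beside 10.3% elsewhere. On 2B, 17 bins were high and 14 low of 80. On 2A, 11 were high and 9 low of 78, and on 2D 8 were high and 8 low of 65. Bins on the same chromosome are not independent, and these shares were not tested. In 5 Mb bins the group 2 share outside the interval was 19.7% in place of 30.0%. At that size 8.74% of the group 2 bins were high and 11.0% low, beside 7.00% and 8.23% over the other 18 chromosomes.

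**Figure D2:**
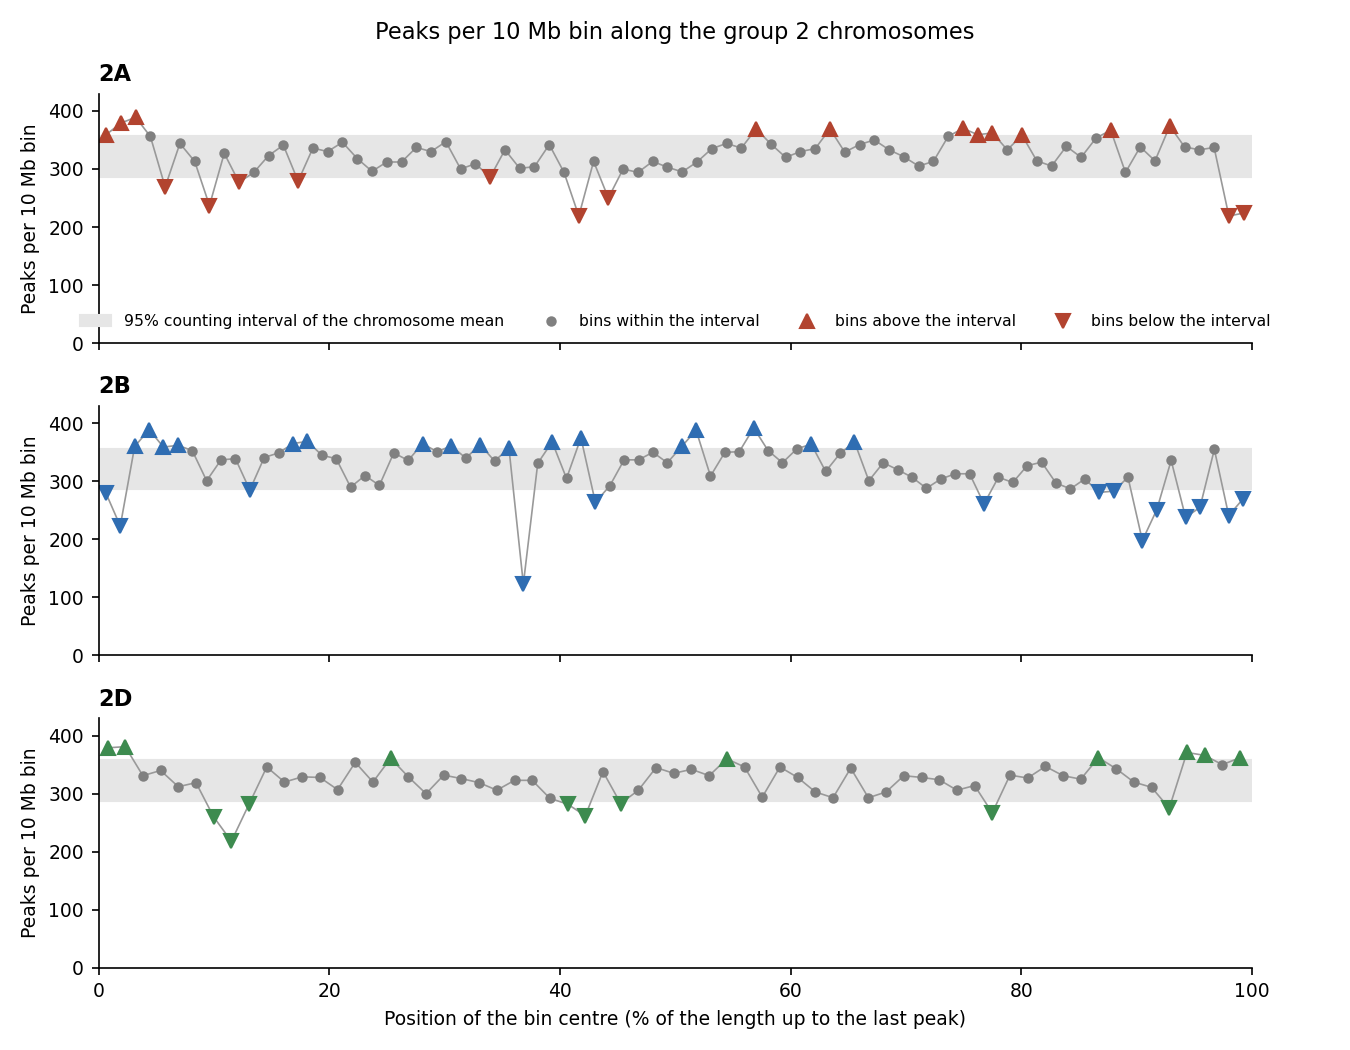
Peaks per full 10 Mb bin (vertical axis) against the bin centre as a percentage of chromosome length (horizontal axis) on 2A, 2B and 2D, with the grey band for the 95% Poisson interval of the chromosome mean and triangles for bins outside it. The bin of 2B with 123 peaks and the low last part of 2B stand out, and the last 2 full bins of 2A hold 219 and 224 peaks.

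The fullest bins lay near the start of 2A and 2D. On 2A the fullest were 20 to 30 Mb (389 peaks) and 10 to 20 Mb (379 peaks). On 2D they were 10 to 20 Mb (381 peaks) and 0 to 10 Mb (379 peaks). On 2B the bin from 30 to 40 Mb held 389 peaks, but the fullest, 450 to 460 Mb with 392 peaks, lay in the interior, and the first 2 bins of 2B were both low with 280 and 223 peaks. The start of 2B thus differed from the starts of its homoeologues, whose first 2 bins were all high (359 and 379 peaks on 2A).

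The emptiest bins were 290 to 300 Mb on 2B (123 peaks) and 720 to 730 Mb on 2B (198 peaks). On 2A they were 320 to 330 Mb and 760 to 770 Mb with 219 peaks each, and on 2D 70 to 80 Mb (218 peaks) and 60 to 70 Mb (260 peaks). Some low bins came in stretches, while others stood alone. Of the 8 bins of 2B from 720 to 800 Mb, 6 were low, and the stretch held 26.8 peaks per Mb. The last 2 full bins of 2A, from 760 to 780 Mb, held 22.15 peaks per Mb, and the 3 bins of 2D from 60 to 90 Mb held 25.3. These stretches were picked after the counts were seen.

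The peak caller numbers its peaks before the authors' filter, so the span of the numbers in a stretch counts all called peaks, kept or not. The low stretches were also low before the filter. Called peaks numbered 59.4 per Mb in the last stretch of 2B, beside 73.8 over all of 2B. In the last stretch of 2A they numbered 48.5 per Mb beside 77.2, and in the stretch of 2D 60.8 per Mb beside 77.4. The share of called peaks kept was not lower there, at 45.1% in the stretch of 2B, 45.7% in that of 2A and 41.7% in that of 2D, beside 43.5%, 41.7% and 41.7% over the whole chromosomes. The mean background at the summits was 1.13 tags in the stretch of 2B, 1.06 in that of 2A and 1.04 in that of 2D, each below the median over the bins of its chromosome (1.16 on 2B, 1.12 on 2A and 1.102 on 2D). The part of local tag depth in the low counts was not tested.

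In 10 equal parts of each chromosome, 2A was the lowest of the 7 A chromosomes in 3 parts and the highest in 0. The largest shortfall was in part 5, with 28.4 peaks per Mb beside 31.6 to 36.2 on the other A chromosomes. 2B was the lowest of its subgenome in parts 8 and 10, and part 10 had 26.9 peaks per Mb beside 29.7 to 35.9. 2D was the lowest in 3 parts and the highest in 1. 2A was below the mean of the other A chromosomes in all parts but part 8, but by unequal amounts. The differences were largest in parts 5 (-5.33 peaks per Mb), 10 (-3.20), 2 (-2.76) and 3 (-2.21). Part 9 differed by -1.02, and parts 1, 4, 6 and 7 by only -0.301 to -0.446. 2B was above the mean of the other B chromosomes in parts 1 to 7 and below it in parts 8 to 10.

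The emptiest place on group 2 was a stretch of 2B from 291 to 298 Mb. Its 7 consecutive windows of 1 Mb held 1, 3, 2, 1, 3, 2 and 2 peaks, 14 in all, which is 6.23% of the mean density of 2B. The change was abrupt on both sides, since the window before held 34 peaks and the window after 40, and 8 flanking windows averaged 36.9. The stretch was as empty before the filter, with 38 called peaks, or 5.43 per Mb beside 73.8 over all of 2B. All 14 peaks had the lowest background of the list, 0.621 tags, with 8 to 20 tags at the summit and fold enrichments from 5.55 to 12.95. Their median width was 347.5 bp, narrower than the 489 bp of 2B. The part of tag depth in this stretch was not tested.

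**Figure D3:**
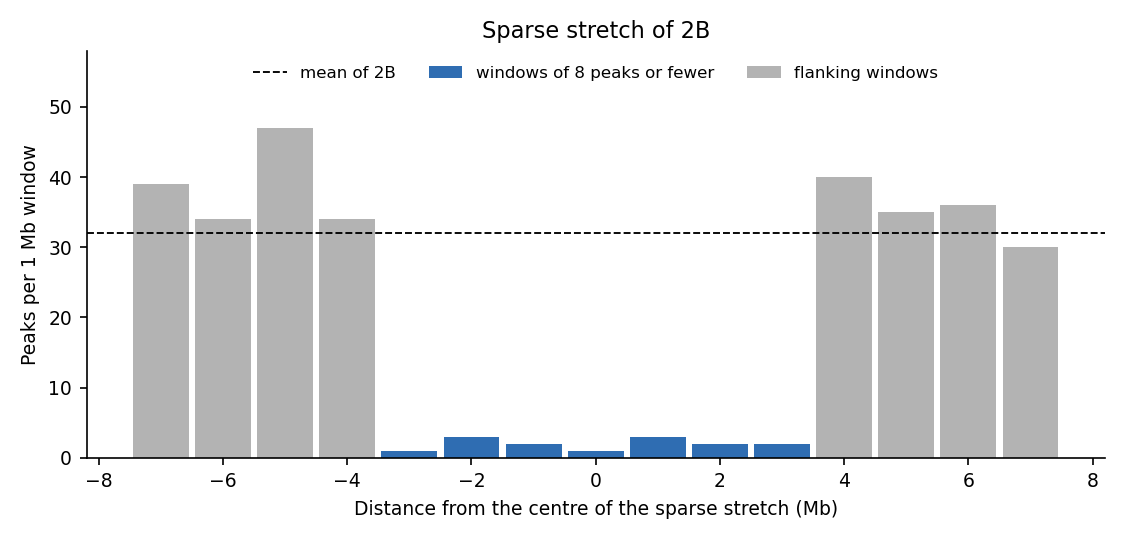
Peaks per 1 Mb window of 2B (vertical axis) against the distance from the centre of the sparse stretch in Mb (horizontal axis), with windows of 8 peaks or fewer in blue, the flanking windows in grey and the mean of 2B as a dashed line. The 7 blue windows hold 1 to 3 peaks each and the grey windows 30 to 47.

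Windows of 1 Mb with 8 peaks or fewer, a limit set after the values were seen, numbered 6 of 780 on 2A, 20 of 801 on 2B and 1 of 651 on 2D. On the other B chromosomes there were 4 to 20. The stretch of 2B was the longest run of such windows on group 2, and on the other 18 chromosomes the longest was 12 windows, on 6B. Elsewhere on 2B the sparse windows were at most 2 in a row, and 10 of its 20 lay beyond 720 Mb. Without such windows on any chromosome, an alternative chosen after seeing the data, 2A had 32.4, 2B 32.8 and 2D 32.3 peaks per Mb, and the difference of group 2 from the others was -0.536 (exact permutation p = 0.140, adjusted p = 0.513).

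The longest distances between neighbouring summits were named by rule, the 3 longest on each chromosome. On 2B they were 1.65 Mb from 728918071 to 730565595, 1.19 Mb from 291107554 to 292295007, at the edge of the empty stretch, and 1.14 Mb from 633064135 to 634208870. The first of these ranked 3 among all distances on the 21 named chromosomes, and 11 called peaks within it had not passed the filter. On 2A the longest were 898 kb from 263188042 to 264085924, 842 kb from 71506717 to 72348777 and 641 kb from 139452537 to 140093608. On 2D they were shorter, with 685 kb from 602720875 to 603405824, 555 kb from 636840101 to 637395170 and 515 kb from 736420 to 1251356. The gap of 842 kb on 2A held 15 called peaks that were dropped and the gap of 898 kb held 2.

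Called peaks that the filter had dropped lay between neighbours at a rate that varied with the distance. In group 2 the rate was 25.7 dropped numbers per Mb for pairs under 2 kb apart. It was 21.7 at 2 to 5 kb, 31.3 at 5 to 8 kb and 43.2 at 8 to 20 kb. The highest rate was 47.1 at 20 to 50 kb, with 46.1 at 50 to 100 kb and 37.5 at 100 to 500 kb. In the 31 gaps above 500 kb the rate fell to 6.09 per Mb. The other 18 chromosomes had 27.7 per Mb under 2 kb, 43.5 at 8 to 20 kb and 47.9 at 20 to 50 kb. In their 105 gaps above 500 kb the rate was 5.17 per Mb.

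The strongest peaks were unevenly shared among the homoeologues. Fold enrichment above 20 was reached by 14 peaks on 2A, 8 on 2B and 4 on 2D. The other A chromosomes had 3 to 7 such peaks, the other B chromosomes 5 to 13 and the other D chromosomes 8 to 10. 2A thus had more than any other A chromosome and 2D fewer than any other D chromosome, while group 2 as a whole had 26, or 1.16 per 100 Mb, beside 1.12 on the other 18. The counts per chromosome are small and not scaled to length, and 2A and 2D were each the longest chromosome of their subgenome. The limit of 20 was set after the values were seen, and no test was run on the counts.

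On 2A the peak with the highest fold enrichment, 28.8, ran from 677892883 to 677893242, with 88 tags over a background of 2.09. The next on the list, with 28.5 and 28.4, lay in the same neighbourhood, from 237536122 to 237536401 (56 tags) and from 237516607 to 237516993 (152 tags, the highest pileup of 2A). A further peak with 26.5 and 80 tags ran from 237542606 to 237543041, 6.62 kb from its neighbour. These peaks gave 3 fold enrichments above 15 within 100 kb. Such a cluster was found on 2 of the 21 named chromosomes, by a count devised after this cluster had been seen. A weaker neighbour, from 237513978 to 237514247, had 50 tags and a fold enrichment of 9.48, since it shared the high background of 4.38 tags with the peak of 152 tags 2.69 kb away.

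On 2B the highest were 26.7 from 756035776 to 756036168 (91 tags), 23.2 from 581575916 to 581576198 (39 tags) and 22.3 from 680545046 to 680545387 (44 tags). The first lay in the last 10% of 2B, within a low bin. On 2D they were 28.0 from 1801810 to 1802151 (69 tags), 23.4 from 630917601 to 630917900 (38 tags) and 22.7 from 322020376 to 322020644 (38 tags). The first of 2D was at 0.276% of the chromosome's length, in its outermost part. Among all named chromosomes the first of 2A ranked 12, that of 2D 16 and that of 2B 25.

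The peaks above 20 were narrow. Their median width on group 2 was 330.5 bp and their median pileup 47 tags. Width first rose with fold enrichment and then fell. On 2A the median width was 405 bp at fold enrichments of 5 to 6, 472 bp at 6 to 7, 572 bp at 7 to 10, 603 bp at 10 to 15 and 398 bp above 15. On 2B it was 419 bp at 5 to 6, 581.5 bp at 7 to 10, 578.5 bp at 10 to 15 and 378.5 bp above 15. On 2D it was 409 bp at 5 to 6, 581 bp at 7 to 10, 612.5 bp at 10 to 15 and 325.5 bp above 15. The classes above 15 held 35 peaks on 2A, 36 on 2B and 22 on 2D. The other 18 chromosomes showed the same course, with 409 bp at 5 to 6, 602 bp at 10 to 15 and 415 bp above 15.

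**Figure D4:**
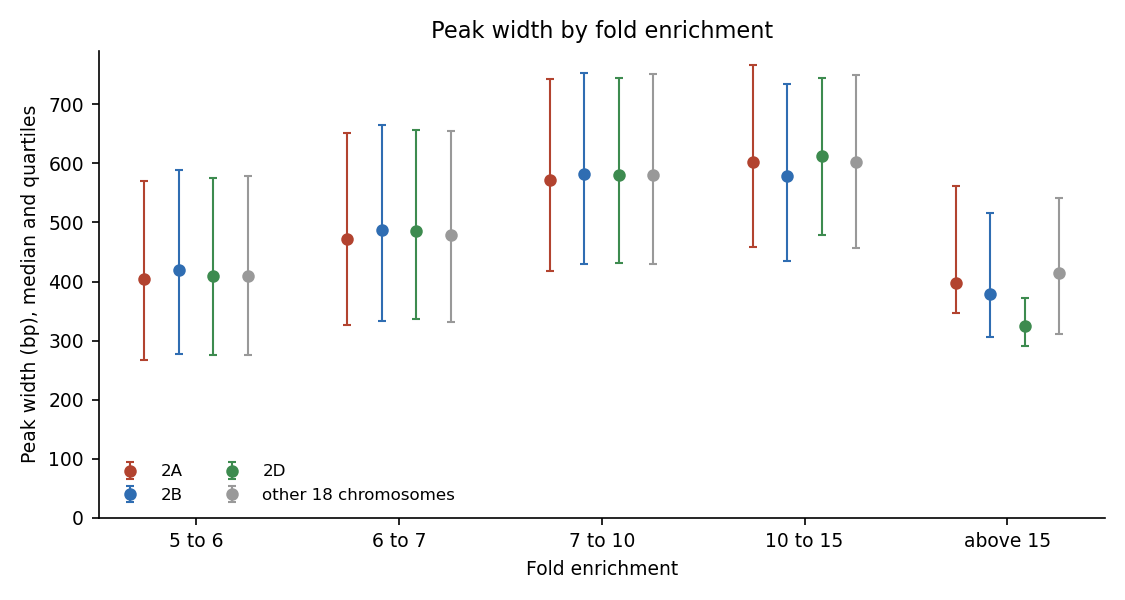
Median peak width in bp (points, vertical axis) with quartiles (bars) by class of fold enrichment (horizontal axis) for 2A, 2B, 2D and the other 18 chromosomes together. Medians rise from 405 to 419 bp on group 2 in the lowest class to 572 to 581.5 bp at 7 to 10 and fall to 325.5 to 398 bp above 15.

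The widest peaks were not among the highest by fold enrichment. On 2A the widest, 2131 bp from 2268718 to 2270848, had a fold enrichment of 5.82. On 2B the widest was 1839 bp from 592566649 to 592568487 (6.71), and on 2D it was 1999 bp from 628291106 to 628293104 (5.38). The peak of 2D had 176 tags, nearly the highest pileup of 2D, over a background of 31.9 tags, the highest of any group 2 peak. A width of 1 kb or more was found for 3.63% of the peaks on 2A, 4.15% on 2B and 3.45% on 2D. Over single peaks of group 2, the width had a Spearman rho of 0.413 with the pileup, 0.298 with the background and 0.291 with the fold enrichment (71837 peaks, which share the libraries and are not replicates). The other 18 chromosomes had 0.412, 0.294 and 0.294.

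Fold enrichment was higher towards the ends of all 3 chromosomes. Over the first and last 10% of its length combined, 2A had 3.66% of its peaks above 10, beside 2.76% in between. On 2B the shares were 3.79 and 2.65%, and on 2D 3.09 and 2.54%. The differences of 0.902, 1.13 and 0.550 percentage points lay within the range of the other 18 chromosomes (-0.00325 to 1.71, median 0.835), 17 of which were also higher at the ends. The pattern is common to the list and was not tested. Kept called peaks were also more frequent at the ends, by 2.61 points on 2A, 1.36 on 2B and 3.36 on 2D. All 18 other chromosomes were higher at the ends too, by 0.142 to 3.97 points (median 2.34).

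Density did not follow. The ends of 2D had 2.22 more peaks per Mb than its interior, whereas the same difference was -0.375 on 2A and -2.82 on 2B. For 2B the shortfall was in the last 10% (26.9 peaks per Mb beside 32.7 in the interior) and not at the first (32.8). In the last 10% of 2B, then, peaks were fewest while the share above 10 was high, at 4.37%, with 94 peaks.

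By bins, 6 of the 223 had more peaks above 10 than the central 95% of a binomial distribution with the share of their chromosome (2.69%, beside 4.34% of the bins of the other 18) and 5 had fewer (2.24%, beside 2.39% elsewhere). Both shares were below those of the other chromosomes. On 2A the bin from 320 to 330 Mb had the highest share, with 17 of 219 peaks (7.76%, 95% Wilson interval 4.90 to 12.1%), and was also an emptiest bin of 2A. On 2B the last 2 full bins were both high, with 17 of 241 peaks from 780 to 790 Mb (7.05%, 4.45 to 11.0%) and 17 of 270 from 790 to 800 Mb (6.30%, 3.97 to 9.85%). On 2D the highest was 10 to 20 Mb with 18 of 381 (4.72%, 3.01 to 7.34%), which was also the fullest bin of 2D.

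**Figure D5:**
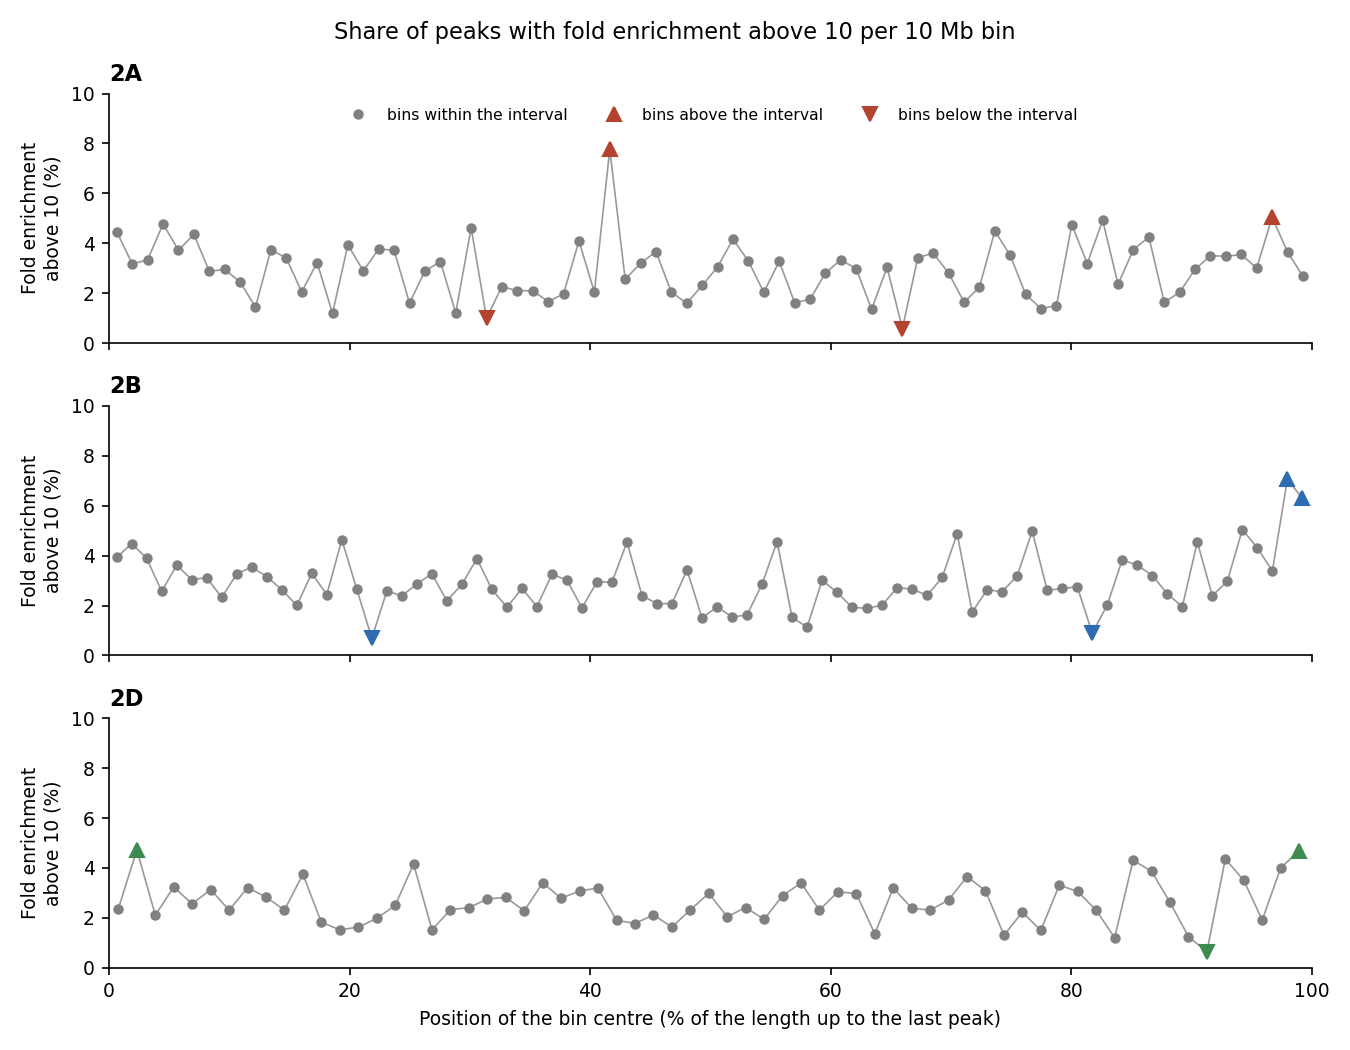
Share of peaks with fold enrichment above 10 in each full 10 Mb bin in % (vertical axis) against the bin centre as a percentage of chromosome length (horizontal axis) for 2A, 2B and 2D, with triangles for bins outside the 95% binomial interval of the chromosome's share. The high bins are 1 in the interior of 2A with 7.76%, 1 near its end with 5.04%, the last 2 of 2B with 7.05 and 6.30%, and 1 near each end of 2D with 4.72 and 4.70%.

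Across the bins of 2B, peak number and the share above 10 ran in opposite directions (Pearson r = -0.417, Spearman rho = -0.295, 80 bins). On 2A r was -0.100 and rho 0.0739 (78 bins), and on 2D r was 0.195 and rho 0.176 (65 bins). Bins with more peaks had wider peaks on all 3 chromosomes (r = 0.471 on 2A, 0.532 on 2B and 0.386 on 2D) and a higher mean background (r = 0.576, 0.436 and 0.450). Pooled over the 223 bins of group 2, r was 0.457 for width and 0.445 for background. Pooled over the 1174 bins of the other 18 chromosomes, it was 0.252 and 0.337. Pooling mixes chromosomes that differ in mean density and width, and r within each of the other chromosomes is not given here. Bins share the libraries and their depth, so these values are descriptions without a test.

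The share of called peaks that passed the filter was 41.7% on 2A (95% Wilson interval 41.3 to 42.1%), 43.5% on 2B (43.1 to 43.9%) and 41.7% on 2D (41.2 to 42.1%). The interval of 2B lay above those of 2A and 2D. The B chromosome was also the highest in each of the other 6 groups, by at least 1.59 points over A and at least 1.37 points over D. Group 2 differed from the other chromosomes by -0.115 points (exact permutation p = 0.481, adjusted p = 0.550). By bins the share ranged from 36.4 to 49.0% on 2A, 39.5 to 49.2% on 2B and 35.1 to 47.7% on 2D.

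Matching positions of the homoeologues showed little likeness in peak density. Each chromosome was cut into 40 equal parts, and the densities of matching parts were compared. Pearson's r was 0.0202 for 2A with 2B, 0.182 for 2A with 2D and -0.180 for 2B with 2D (rho -0.0532, 0.0920 and -0.0344). In the other groups r ran from -0.0790 to 0.290 for A with B, from -0.278 to 0.449 for A with D and from -0.331 to 0.225 for B with D, and group 2 lay within all 3 ranges. Pairs that joined a group 2 chromosome to a chromosome of another group gave medians of 0.0531, -0.0188 and -0.0737, so 2A with 2D lay above and the other pairs below these medians. Equal parts of the length match homoeologous genes only roughly, since the chromosomes differ in length.

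The kept share, in contrast, ran alike along all 3, with r = 0.470 for 2A with 2B, 0.485 for 2A with 2D and 0.583 for 2B with 2D. In the other groups r ran from 0.207 to 0.522 for A with B and from 0.257 to 0.499 for A with D. For B with D it ran from -0.0933 to 0.560, and only 2B with 2D lay above its range. Pairs from different groups had medians of 0.332, 0.303 and 0.352, and reached 0.479, 0.628 and 0.603 at the highest. The share of peaks above 10 gave 0.175, 0.173 and 0.412, beside medians of 0.245, 0.256 and 0.410 for pairs from different groups. For this share 2A with 2B was below all 6 other A and B pairs (0.264 to 0.568), but not in 20 parts (0.464, others 0.425 to 0.789). Parts share the libraries and their depth, and no likeness was tested.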

How the data were processed

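DAP-seq peaks of TaCCA1-7D were taken from a single deposited list. Per the labels and methods, the authors trimmed reads with Trimmomatic, used Bowtie2 2.3.4 for alignment to the wheat genome of Ensembl, filtered alignments with SAMtools 1.9, removed duplicates with Picard, called peaks with MACS2 and kept those with fold enrichment above 5 and FDR below 1e-05. How MACS2 used the 2 DAP-seq and 2 input libraries is not given in the sources used here. The deposited columns give positions, a score, the fold enrichment (a ratio) and the −log10 p-value and q-value at the summit, all the authors' values. Reads of the cultivar Fielder were placed on a reference sequence, so positions are those of the reference.

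Pileup and background were worked back from the fold enrichment and the −log10 p-value. A whole pileup was found for 100% of the peaks (misfit under 0.0001). Distances and bins use summits. Density uses the length up to the last peak. Tests were exact permutations within subgenomes, tested on simulated data. Shares have Wilson intervals. Alternatives changed the filter, thresholds, bin sizes, reference chromosomes and group 2 chromosomes. The named items were, per chromosome, the 3 highest peaks by fold enrichment, the widest peak, the 3 longest gaps, the 2 fullest and 2 emptiest bins and the bin with the highest share above 10, and the oligonucleotides of the group 2 gene. Members and measures were chosen with earlier results of these data known. Python 3.11.15, numpy 2.4.6, pandas 2.3.3, scipy 1.17.1 and matplotlib 3.10.9 were used.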

Additional observations from a re-analysis of the deposited data

How the results depend on the processing

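Over the alternatives tried for the 8 tested measures, no adjusted p fell below 0.05 (exact permutation tests; the lowest adjusted p of an alternative, 0.0700, was for the median spacing of peaks with fold enrichment above 10, by 93554 bp). With those peaks alone, the direction turned for the median width (-6.58 bp), the share of neighbours under 2 kb (0.0256 percentage points) and the CV of bins (-1.03 points). With an FDR below 1e-10 the median fold enrichment turned (0.00467). Without 2A and its subgenome the median spacing turned (-39.5 bp), and without 2D and its subgenome the median width (-1.25 bp). In 5 Mb bins the share of group 2 bins outside the counting interval was 19.7% (30.0% in 10 Mb bins). For peaks above 10 it was 3.14% (4.93%). On the other 18 chromosomes, 7.00% of the 5 Mb bins were high and 8.23% low (9.88 and 10.3% in 10 Mb bins). For peaks above 10 their shares were 3.18 and 1.49% (4.34 and 2.39%). In 20 parts r was -0.105 for 2A with 2B and -0.0197 for 2B with 2D, and in 80 parts it was 0.0640 for 2A with 2D. The cause of these changes was not tested. Without 2B and its subgenome the median width difference was 0 bp. Without 2A and its subgenome the density difference was -0.167 peaks per Mb (main value -0.609). Among the 71 other values, these included, no call changed and no sign turned. Leaving out sparse windows or the bins holding them was chosen after seeing the data.

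No paired analysis was possible because the list does not separate the libraries, and leaving out a replicate was not possible for the same reason. No read depth per library, mappability or gene annotation was used. Chromosomes and bins of a single list are not replicates.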
